A study of Mus musculus with 6 samples.

Results

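The genes described here encode enzymes with which the lysosome degrades glycans, lipids and nucleic acids, together with the activator proteins and processing factors those enzymes need. The set holds 43 genes of 55421 in the deposited count table. It was named by symbol, as lysosomal hydrolases outside the main cathepsin family with their activators and sorting factors, and each symbol matched 1 Ensembl gene. All 43 genes passed the filter on low counts, which kept 13588 genes. RNA was sequenced from primary mouse bone marrow-derived macrophages, cells grown in culture from marrow progenitors. The Tmem175 knockout group comprised 3 libraries from Tmem175flox/flox Lyz2-Cre+/- cells, whose genotype label is Tmem175-/-, and the WT group comprised 3 libraries from wild type cells. No treatment or animal age is given for either group. Cre is driven by Lyz2, a gene active in myeloid cells, and no library from cells with Cre alone or with floxed alleles alone was analysed here, so that deletion, Cre and floxed alleles cannot be told apart. The libraries are described as separate wells and not as separate animals. The p-values, SEs and confidence intervals thus rest on the spread between wells, which may be technical.

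Lysosomal hydrolases are made in the endoplasmic reticulum, tagged in the Golgi with mannose 6-phosphate and carried by receptors to the acidic lysosome, where they remove sugars, sulfates, fatty acids and phosphates from substrates 1 step at a time. Loss of a single enzyme leaves its substrate undegraded, which underlies the lysosomal storage diseases, and macrophages are often the cells that fill with it. TMEM175 is an ion channel of the lysosomal membrane that conducts potassium ions and protons, and many hydrolases depend on the lumenal pH. Many hydrolase genes carry, near their start, an element read by the transcription factors TFEB and TFE3, known as the CLEAR element.

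The CLEAR core letters were found in 4 of the 38 members with a promoter entry in RefSeq (GRCm38.p6), where an entry spans 250 bases before to 50 bases after an annotated start. Asah1, Aga, Siae, Hgsnat and Galns had no entry. The core, TCACGTGA, reads the same on both strands and was present for 10.5% of the matched members and for 1.12% of 27025 genes in the RefSeq table. Its holders were Gla, which encodes the alpha-galactosidase that trims globosides, Ctsa, which encodes a protective carboxypeptidase, Sumf1, which encodes the activator of sulfatases, and Gnptg, which encodes a subunit of the tagging enzyme. Gla and Ctsa each held the core at 2 places. Ctsa had 2 promoter entries, and both places lay in the same entry, whose start is the one meant below. The annotated gene Ctsa begins at chr2:164832873, upstream of both windows. The shorter E-box CACGTG, which lies inside the CLEAR core, was found for 10 matched members (26.3%) and for 8.09% of all genes in that table. The other 6 holders of an E-box were Glb1, Arsa, Gaa, Sgsh, Naglu and Nagpa. Windows of 30 bases around each CLEAR core are shown because this element is known for its part in the control of lysosomal genes, in gene orientation with the core in capitals. On GRCm38.p6 the windows lie at chrX:134601215-134601244 and chrX:134601182-134601211 on the minus strand for Gla, at chr2:164833749-164833778 and chr2:164833766-164833795 on the plus strand for Ctsa, at chr6:108185577-108185606 on the minus strand for Sumf1 and at chr17:25240120-25240149 on the minus strand for Gnptg.
Gla, farther from the start: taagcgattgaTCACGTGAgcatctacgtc
Gla, nearer to the start: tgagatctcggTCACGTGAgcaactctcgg
Ctsa, before the start: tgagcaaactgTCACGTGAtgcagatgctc
Ctsa, after the start: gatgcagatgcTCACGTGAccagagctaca
Sumf1: agcaccacaggTCACGTGAtctccatgggt
Gnptg: ccggctgtcacTCACGTGAccgtgagaccc

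The 4 members with the CLEAR core had log2 fold changes, knockout over wild type, of -0.029 to -0.0037, and none passed the test. The 10 members with an E-box had a median log2 fold change of -0.0037, and the 28 matched members without one had a median of 0.015. A match to these letters describes the sequence only and is no measure of binding.

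Total counts were 31542741, 29118452 and 25979430 in the knockout libraries and 24179548, 24547091 and 25916709 in the wild type libraries. Tmem175 itself was at 14.3, 13.2 and 12.1 CPM (read counts scaled to library size) in the knockout libraries and 32.8, 33.4 and 33.2 CPM in the wild type libraries, a log2 fold change of -1.33 ± 0.07 (SE, edgeR quasi-likelihood test, adjusted p = 6.01e-05). Lyz2, the gene that carries Cre, was lower in knockout as well, at 24326 ± 1578 CPM against 45178 ± 4163 CPM in wild type (SD, n = 3 each; log2 fold change -0.89, edgeR adjusted p = 0.00415). The macrophage genes Adgre1, Csf1r and Cd68 were abundant in every library, and Lyz2 was the only macrophage marker of 10 that passed the test. Summed over 12 neutrophil markers, levels were 815 to 881 CPM in knockout, against 485 to 711 CPM in wild type. Of the 12, 10 had a positive log2 fold change, none past the test, with the smallest adjusted p, 0.0521 (edgeR), for S100a8. In this list 6 markers were higher and 1, Mpo, was lower at an unadjusted p under 0.05, with Mpo at a log2 fold change of -0.76. The most abundant were S100a9 and S100a8, which averaged 294 and 174 CPM in knockout, against 193 and 108 CPM in wild type. Marker sums of other cells were lower on average in knockout but overlapped between the groups, at 32.3 to 52.7 CPM in knockout, against 45.3 to 60.8 CPM in wild type, for mast cells and basophils. Those sums were 15.6 to 22.6 CPM in knockout, against 19.8 to 28.4 CPM in wild type for dendritic cells, 80.4 to 112 CPM in knockout, against 109 to 167 CPM in wild type for lymphocytes, and 98.9 to 148 CPM in knockout, against 123 to 204 CPM in wild type for red cells and megakaryocytes. None of these markers passed the adjusted test. At an unadjusted p under 0.05 and lower in knockout were 5 of 8 tested mast cell and basophil markers, 2 of 8 for dendritic cells, 3 of 4 for lymphocytes and 3 of 4 for red cells and megakaryocytes. Hbb-bs was at 0 in all 6 libraries. In bulk RNA, fewer cells of a type and less RNA per cell cannot be told apart.

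The transcript levels of the lysosomal hydrolases differed little between Tmem175 knockout and wild type macrophages. With p-values adjusted over all 13588 genes, none of the 43 members passed the edgeR quasi-likelihood test at 0.05. Of all genes tested, 0.103% passed, with 0.0147% higher and 0.0883% lower in knockout. At an unadjusted p under 0.05 there were 2 members, 1 higher (Arsb) and 1 lower (Hgsnat), beside 5.44% of all genes, of which 2.4% were higher and 3.04% lower in knockout. The same 2 genes were the only members whose knockout and wild type libraries did not overlap, beside 10.8% of all genes, 5.73% higher and 5.06% lower in knockout. The share of members was thus no greater than the share of all genes at either limit. Hgsnat was the 1 member that DESeq2's Wald test and edgeR without a filter on low counts called lower, beside 0.141% and 0.431% of all genes so tested.

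Most members were measured tightly enough to bound their difference. The log2 fold change, knockout over wild type, was positive for 25 members and negative for 18, with a median of 0.010 and a range of -0.42 to 0.35. Of the 43 members, 14 changed sign with library totals alone as the scaling and 24 under at least 1 alternative. Over all genes tested, 6743 were positive and 6845 negative, with a median of -0.00090. The absolute log2 fold change was under 0.1 for 37 of the 43 members (86.0%) and for 63.3% of all genes tested. The median SE of the log2 fold change was 0.053 for the members and 0.087 for all genes, which were not matched to the members by level. The 95% confidence interval lay inside a 1.25-fold change in either direction for 36 members. It reached past that bound for the other 7, Hgsnat, Arsb, Galns, Hyal1, Acp5, Rnaset2a and Rnaset2b, which came from the glycosaminoglycan and the phosphatase and nuclease classes.

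**Figure D1:**
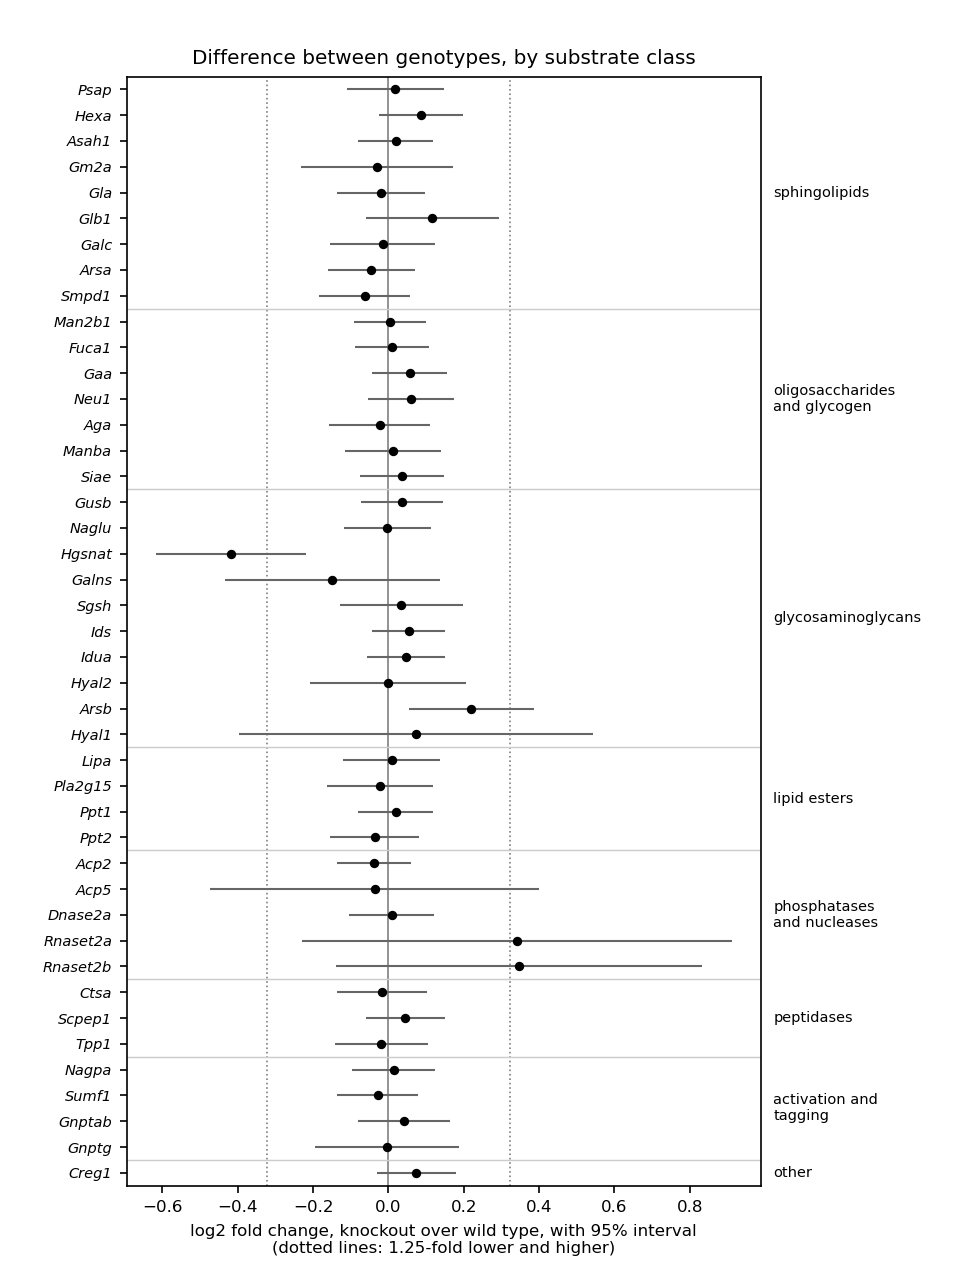
Log2 fold change of each of the 43 genes, knockout over wild type (horizontal axis), with its 95% confidence interval from the edgeR fit. Genes are grouped by substrate class, and dotted lines mark a 1.25-fold change. Hgsnat at -0.42 and Arsb at 0.22 are the 2 genes whose interval excludes 0, and the intervals of Rnaset2a and Rnaset2b are wide.

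The plot of log2 fold changes by substrate class shows the narrow spread around 0 for sphingolipid, oligosaccharide, lipid ester, peptidase and tagging genes. It also shows the wider intervals of the low-count or variable genes. Summed over all 43 members, the level was 35961, 32725 and 33970 CPM in the knockout libraries and 34048, 33735 and 33739 CPM in the wild type libraries. The sums averaged 34218 ± 1632 CPM in knockout, against 33840 ± 179 CPM in wild type (SD, n = 3 each), a ratio of 1.01. The wild type values all lay within the knockout range. The members took up 3.38% to 3.59% of all counts in the knockout libraries and 3.27% to 3.37% in the wild type libraries. The lowest knockout share, 3.376%, lay just above the highest wild type share, 3.373%, unlike the sums in CPM, which overlapped. These shares are of the total counts, without the scaling factors that CPM includes. Library totals alone as the scaling moved the median log2 fold change of all genes tested from -0.00090 to 0.042. The shares are thus no measure of the members apart from other genes.

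Between genes, levels were compared as CPM per kilobase of exon (RPKM), averaged over all 6 libraries. Psap, which encodes the precursor of the saposins that present sphingolipids to their hydrolases, was the most abundant member at 7743 RPKM and held 69.4% of the summed RPKM of the set. Hexa, which encodes the alpha subunit of beta-hexosaminidase, followed at 699 RPKM. Creg1, Ctsa, Lipa, Gusb, Scpep1, Asah1, Man2b1, Gm2a and Pla2g15 lay between 348 and 102 RPKM. The middle of the order held 25 members between 10 and 100 RPKM. Under 10 RPKM there were 7 members, from Gnptg at 8.82 RPKM through Hyal2 at 5.92, Siae at 4.69, Arsb at 3.87 and Hyal1 at 1.74 down to Rnaset2a at 0.658 and Rnaset2b at 0.537 RPKM. Of the 42 pairs of neighbours in this order, 24 overlapped over the 6 libraries, so the middle of the order is not resolved, while Psap, Hexa, Creg1, Ctsa and Lipa did not overlap with the next.

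**Figure D2:**
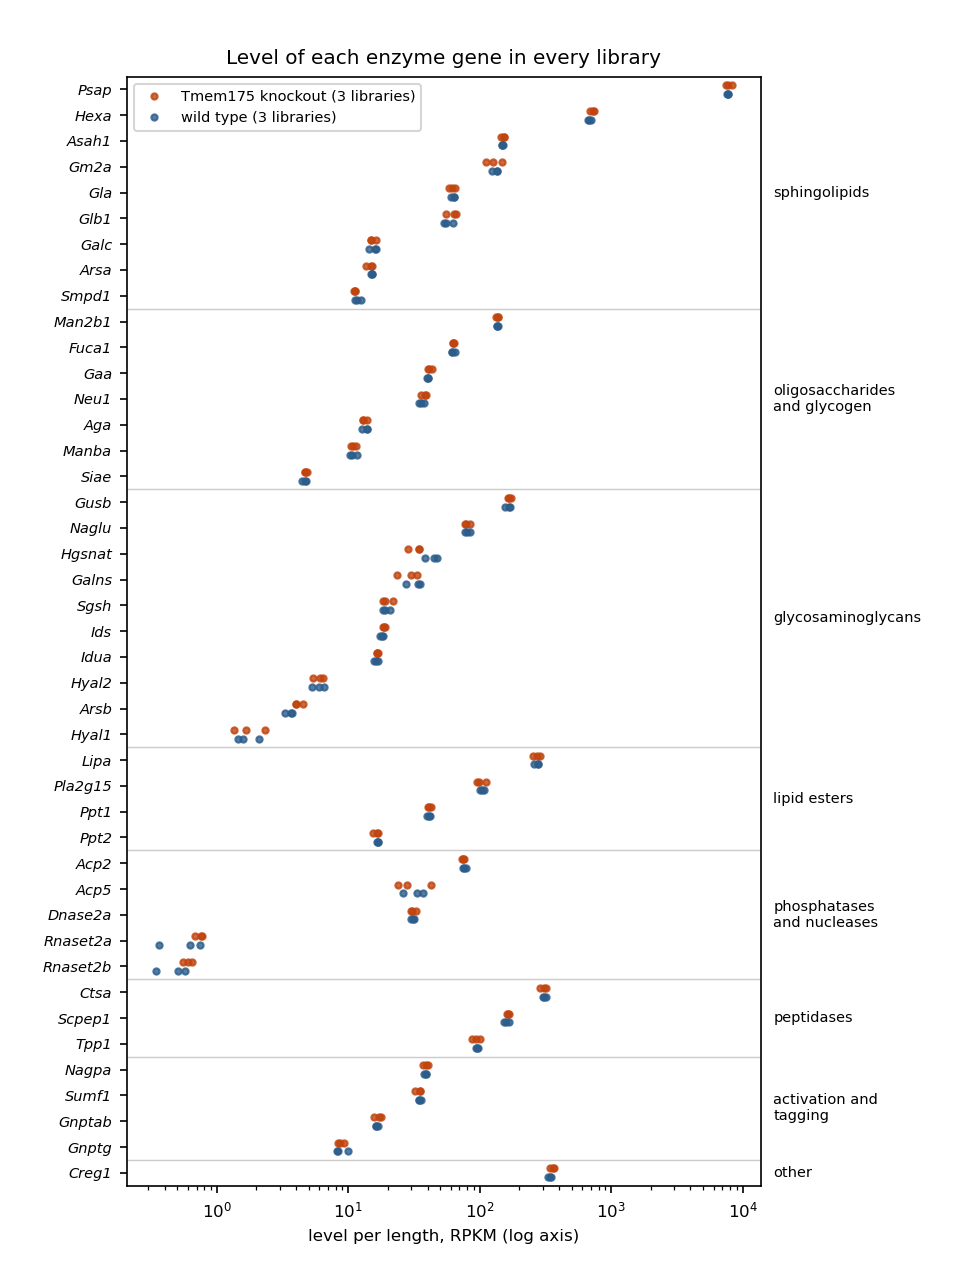
RPKM of each of the 43 genes in every library (log axis), 3 knockout libraries in orange above 3 wild type libraries in blue, grouped by substrate class and ordered by mean level. Counted levels span from 0.537 RPKM for Rnaset2b to 7743 RPKM for Psap, and the genotypes lie on top of each other for most genes.

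The plot of RPKM by library shows a wide range of levels within the sphingolipid, oligosaccharide and glycosaminoglycan classes and a narrower one among the serine peptidases, from 94.4 to 307 RPKM, and the activation and tagging genes, from 8.82 to 38.5 RPKM. Among the classes with several genes, the medians ran from 18.9 RPKM for the glycosaminoglycan enzymes to 162 RPKM for the serine peptidases. Some levels carry a limit from the counting. Exons of 20 members overlap those of another annotated gene, 15 of them on the opposite strand, and the strand setting of the counting is not given in the sources used here. The overlap is largest for Hyal1, which shares 50.8% of its exon length with Naa80 on the same strand, and for Gnptg, which shares 49.5% with Unkl on the opposite strand.

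The 9 sphingolipid genes stayed close to 0, with a median log2 fold change of -0.016 and a range of -0.063 to 0.12, and none passed the test. This class removes sugars and sulfate from glycosphingolipids and then splits ceramide and sphingomyelin. Psap was at 22635, 20426 and 21072 CPM in the knockout libraries and 21338, 20800 and 21206 CPM in the wild type libraries, a log2 fold change of 0.018 ± 0.058 (SE, edgeR adjusted p = 0.982). Hexa, needed to cleave ganglioside GM2, was at 1488, 1381 and 1444 CPM in the knockout libraries and 1317, 1401 and 1345 CPM in the wild type libraries. Knockout libraries 1 and 3 lay above every wild type library and knockout library 2 lay inside their range. The log2 fold change of Hexa was 0.086 ± 0.050 (SE, edgeR adjusted p = 0.954). The other 7 genes spanned from Smpd1, which encodes acid sphingomyelinase, at -0.063 to Glb1, which encodes the beta-galactosidase that cleaves ganglioside GM1, at 0.12 on the log2 scale. Gla, Galc (galactosylceramidase), Arsa (the sulfatase of sulfatide), Asah1 (acid ceramidase) and Gm2a (the activator that lifts GM2 out of the membrane for beta-hexosaminidase) lay between them. Gm2a varied most within a genotype, with 609, 463 and 517 CPM in the knockout libraries against 553, 561 and 510 CPM in the wild type libraries.

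The 7 genes that act on glycoprotein oligosaccharides and glycogen had a median log2 fold change of 0.012, 6 of them positive, within -0.023 to 0.060. None passed the test. Man2b1, which encodes the lysosomal alpha-mannosidase, was the most abundant, at 1103, 1070 and 1108 CPM in the knockout libraries and 1087, 1097 and 1088 CPM in the wild type libraries. Its log2 fold change was 0.0038 ± 0.043 (SE, edgeR adjusted p = 0.995), with a 95% interval of -0.09 to 0.10. Gaa, which encodes the acid alpha-glucosidase that degrades glycogen, was at 208, 198 and 193 CPM in the knockout libraries and 193, 193 and 190 CPM in the wild type libraries. The lowest knockout library lay among the wild type libraries, and the log2 fold change was 0.056 ± 0.045 (SE, edgeR adjusted p = 0.968). Neu1 (sialidase), Manba (beta-mannosidase), Fuca1 (alpha-fucosidase), Aga (which frees the sugar from asparagine) and Siae (sialate esterase) were within the range given for the class.

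The 10 glycosaminoglycan enzymes held both members with an unadjusted p under 0.05, in opposite directions, around a class median of 0.035. None passed the adjusted test. These enzymes degrade heparan, dermatan, chondroitin and keratan sulfate and hyaluronan. Most act in a fixed order, in which 1 step prepares the chain end for the next. Hgsnat (ENSMUSG00000037260, chr8:25944453-25976753, GRCm38, minus strand) encodes the membrane acetyltransferase that acetylates the terminal glucosamine of heparan sulfate, a step without which Naglu's enzyme cannot act. It was at 113, 94.7 and 115 CPM in the knockout libraries and 149, 127 and 155 CPM in the wild type libraries. Every knockout library lay below every wild type library. The means were 108 ± 11.2 CPM in knockout, against 144 ± 14.5 CPM in wild type (SD, n = 3 each), which gave a log2 fold change of -0.42 ± 0.09 (SE) and a 95% interval of -0.62 to -0.22. The edgeR quasi-likelihood test gave an unadjusted p of 0.000994 and an adjusted p of 0.344. Under DESeq2's Wald test the adjusted p was 0.00891 and under edgeR without a filter on low counts it was 3.73e-06, and over all alternatives it ranged from 3.73e-06 to 0.920. The log2 fold change stayed between -0.50 and -0.33 with any 1 library left out. The exons of Hgsnat overlap no other annotated gene. The 3 knockout libraries that were low in Hgsnat were also those high in summed neutrophil markers and low in Lyz2, and the part of these or of the other marker lists in the difference was not tested.

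Arsb (ENSMUSG00000042082, chr13:93771630-93943016, GRCm38, plus strand), which encodes the sulfatase of dermatan and chondroitin sulfate, was at 24.0, 27.2 and 24.2 CPM in the knockout libraries and 22.2, 22.6 and 20.0 CPM in the wild type libraries. All knockout libraries lay above all wild type libraries, by a small margin. The means were 25.1 ± 1.76 CPM in knockout, against 21.6 ± 1.43 CPM in wild type (SD, n = 3 each), which gave a log2 fold change of 0.22 ± 0.07 (SE, edgeR unadjusted p = 0.0144, adjusted p = 0.837), and no alternative called it. The annotated opposite-strand gene Gm26527 covers 32.3% of the exon length of Arsb. It has no row in the deposited count table, so its level is not known. As the strand setting is not given, whether its reads were counted for Arsb cannot be told. Summed neutrophil markers and Lyz2 divide the libraries in the same way here, and their part in the difference of Arsb was not tested either.

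The genes of the enzymes that act just before and after Hgsnat on heparan sulfate had overlapping genotypes. Naglu, which encodes the glucosaminidase of the next step, was at 224, 210 and 205 CPM in the knockout libraries and 205, 222 and 213 CPM in the wild type libraries. Sgsh, which encodes the sulfamidase of the step before, was at 84.5, 95.9 and 80.4 CPM in the knockout libraries and 83.5, 80.3 and 91.0 CPM in the wild type libraries. For both genes the libraries of the genotypes were interleaved, with log2 fold changes of -0.0037 for Naglu and 0.035 for Sgsh. The ratio of Hgsnat to Naglu in RPKM was 0.407, 0.363 and 0.450 in the knockout libraries and 0.582, 0.461 and 0.586 in the wild type libraries. The ratio of Hgsnat to Sgsh averaged 1.67 ± 0.31 in knockout and 2.26 ± 0.13 in wild type (SD, n = 3 each). These ratios were formed after the values had been seen and describe the same difference in another form, without a test.

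**Figure D3:**
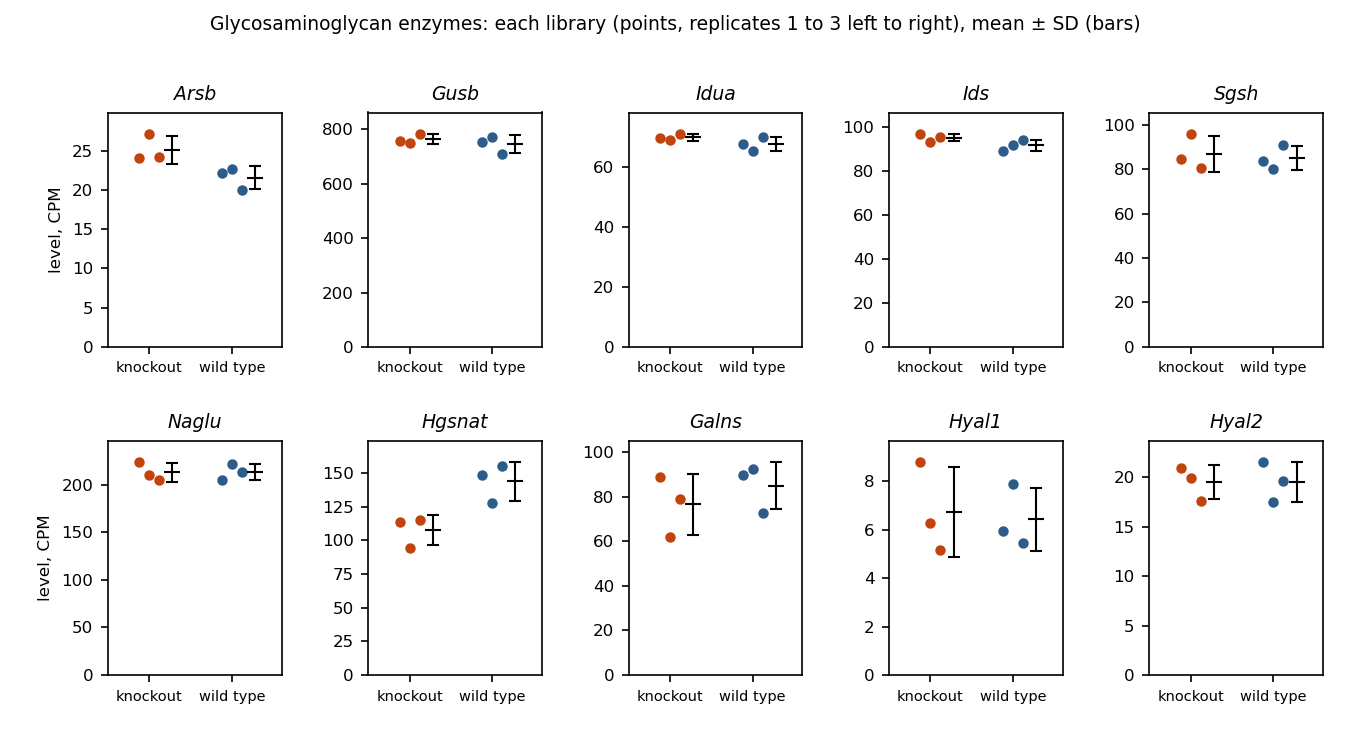
CPM of the 10 glycosaminoglycan enzymes in each library (points), with the mean and SD of each genotype (bars, n = 3 each), knockout in orange on the left and wild type in blue on the right of each panel. In Hgsnat the 3 knockout libraries lie between 94.7 and 115 CPM, below all wild type libraries, and in the panels other than Hgsnat and Arsb the genotypes overlap.

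The panels of CPM for the glycosaminoglycan enzymes show the separation of Hgsnat and the smaller separation of Arsb beside the overlap of the other 8. Gusb, which encodes beta-glucuronidase, was the most abundant of the class, at 759, 750 and 784 CPM in the knockout libraries and 753, 774 and 709 CPM in the wild type libraries. Its log2 fold change was 0.036 ± 0.049 (SE, edgeR adjusted p = 0.979). Idua and Ids, which act in sequence on the iduronic acid of heparan and dermatan sulfate, had log2 fold changes of 0.046 and 0.054. Galns, which encodes a sulfatase of keratan sulfate, was at 88.8, 61.9 and 79.1 CPM in the knockout libraries and 89.8, 92.3 and 72.8 CPM in the wild type libraries. Knockout library 2 was the lowest and the others overlapped, with a 95% interval of -0.44 to 0.14 on the log2 scale. The hyaluronidase genes Hyal1 and Hyal2 had log2 fold changes of 0.074 and -0.0014, and the 95% interval of Hyal1, from -0.40 to 0.54, was wide, with a coefficient of variation of 27.8% in knockout and 20.1% in wild type.

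The 4 lipid ester and thioester hydrolases had a median log2 fold change of -0.0068 and none passed the test. Lipa, which encodes the acid lipase that frees cholesterol from the esters of engulfed lipoproteins, was at 1940, 1717 and 1851 CPM in the knockout libraries and 1864, 1864 and 1747 CPM in the wild type libraries. The genotypes overlapped, with a log2 fold change of 0.0084 ± 0.058 (SE, edgeR adjusted p = 0.989). Ppt2, which encodes a thioesterase, was at 44.2, 40.0 and 43.2 CPM in the knockout libraries and 43.4, 43.6 and 43.8 CPM in the wild type libraries. The log2 fold change was -0.036 ± 0.053 (SE, edgeR adjusted p = 0.979). Ppt1, which removes palmitate from proteins, and Pla2g15, a lysosomal phospholipase, had log2 fold changes of 0.019 and -0.022.

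The 5 acid phosphatases and nucleases held the members with the lowest counted levels and the largest variation. Their median log2 fold change was 0.0092, and none passed the test. Acp2, which encodes the lysosomal acid phosphatase, was at 389, 377 and 390 CPM in the knockout libraries and 385, 407 and 394 CPM in the wild type libraries. The resulting log2 fold change was -0.038 ± 0.044 (SE, edgeR adjusted p = 0.973). Dnase2a, which encodes the acid nuclease that digests engulfed DNA, had a log2 fold change of 0.0092. Acp5, which encodes the tartrate-resistant acid phosphatase of macrophages and osteoclasts, was at 85.8, 48.5 and 56.9 CPM in the knockout libraries and 68.1, 75.4 and 52.9 CPM in the wild type libraries. The highest and the lowest value of Acp5 both came from knockout, and its coefficient of variation there, 30.7%, was the largest of any member in knockout.

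Rnaset2a and Rnaset2b, mouse copies of the gene for an acid ribonuclease, had the lowest counted levels of the members. Rnaset2b was at 2.66, 2.90 and 2.47 CPM in the knockout libraries and 2.25, 1.52 and 2.54 CPM in the wild type libraries, a log2 fold change of 0.35 ± 0.22 (SE, edgeR adjusted p = 0.961). Rnaset2a had a log2 fold change of 0.34. Their reference transcripts, of 1793 and 1783 bases, are 99.1% identical with 17 differing positions in the alignment. Reads can thus fit both, and the level of either copy alone is uncertain. How the counting treated such reads is not given, and any that were dropped would lower the sum of both copies as well. With both counts added, the level was 5.23, 5.16 and 5.02 CPM in the knockout libraries and 3.47, 3.62 and 5.05 CPM in the wild type libraries. Wild type library 3 lay inside the knockout range, and the log2 fold change was 0.34 ± 0.16 (SE, edgeR unadjusted p = 0.0631, adjusted p = 0.931).

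The 3 serine peptidase genes in the set had log2 fold changes of -0.019 to 0.045, and none passed the test. Ctsa encodes a serine carboxypeptidase that holds beta-galactosidase and sialidase in a protective complex. It was at 1506, 1358 and 1453 CPM in the knockout libraries and 1444, 1508 and 1418 CPM in the wild type libraries. Its log2 fold change was -0.017 ± 0.053 (SE, edgeR adjusted p = 0.981). In RPKM, Ctsa stood at 8.15 ± 0.75 times Neu1 in knockout and 8.59 ± 0.53 times in wild type (SD, n = 3 each). Scpep1, which encodes a serine carboxypeptidase, was at 344, 337 and 353 CPM in the knockout libraries and 322, 332 and 348 CPM in the wild type libraries, a log2 fold change of 0.045 ± 0.047 (SE, edgeR adjusted p = 0.972). Tpp1, which encodes tripeptidyl peptidase, had the log2 fold change of -0.019.

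The 4 genes that activate sulfatases or attach and expose mannose 6-phosphate had a median log2 fold change of 0.0050, and none passed the test. Gnptab, which encodes the catalytic subunits of the tagging enzyme, was at 100, 104 and 91.6 CPM in the knockout libraries and 94.6, 94.8 and 98.3 CPM in the wild type libraries. The log2 fold change of Gnptab was 0.042 ± 0.054 (SE, edgeR adjusted p = 0.978). Nagpa, which encodes the enzyme that uncovers the tag, was at 95.9, 92.2 and 87.0 CPM in the knockout libraries and 88.8, 92.2 and 91.6 CPM in the wild type libraries. Its log2 fold change was 0.014 ± 0.049 (SE, edgeR adjusted p = 0.985). Sumf1, whose product makes the formylglycine that every sulfatase of the set needs, had a log2 fold change of -0.029, and Gnptg one of -0.0037. Creg1, a glycoprotein of the lysosome with no known enzymatic activity, was at 869, 811 and 850 CPM in the knockout libraries and 806, 782 and 815 CPM in the wild type libraries. Knockout library 2 lay inside the wild type range and the log2 fold change was 0.074 ± 0.047 (SE, edgeR adjusted p = 0.966).

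The knockout libraries differed from each other across the set. Knockout library 1 was above the mean of the 6 libraries for 35 of the 43 members, with a median deviation of 0.065 on the log2 scale. Knockout library 2 was above that mean for 14 members, knockout library 3 for 21, and the wild type libraries for 17, 26 and 21. The median deviation over all genes was at most 0.0035 in any library. Without knockout library 1 the median log2 fold change of the members was -0.023, against 0.010 with all libraries. The coefficient of variation had a median of 5.10% in knockout and 3.72% in wild type, and it was under 10% in both genotypes for 34 members.

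**Figure D4:**
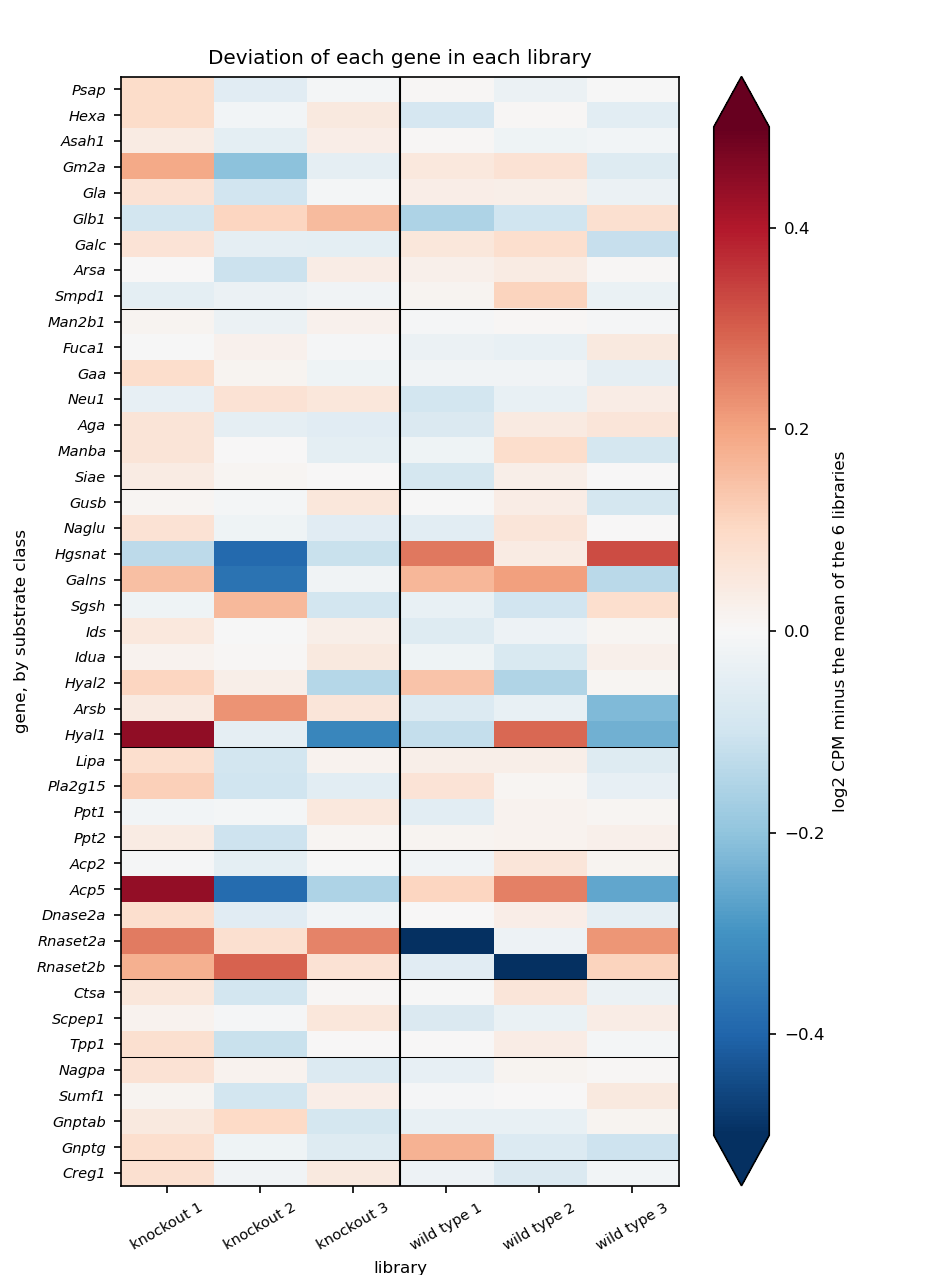
Deviation of each gene in each library from its mean over the 6 libraries, in log2 CPM (colour), with 3 knockout libraries left of 3 wild type libraries and genes grouped by substrate class. Knockout library 1 is above the mean for 35 of 43 genes, and Hgsnat is below its mean in all knockout libraries.

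The map of deviations shows the raised values of knockout library 1 across most classes. The strongest colours belong to the low-count or variable genes Hyal1, Acp5, Galns, Rnaset2a and Rnaset2b and to Hgsnat.

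None of the hydrolase and related genes, sorting genes and transcription factor genes examined outside the set passed the test. Of 24 other hydrolases and related genes, 22 passed the filter, with a median log2 fold change of -0.0050. Plbd1, which encodes a phospholipase B-like protein, had the smallest p among them, with a log2 fold change of -0.27 (edgeR unadjusted p = 0.0274, adjusted p = 0.897). None of 13 sorting receptors and adaptors passed the test, among them the mannose 6-phosphate receptors M6pr and Igf2r, and their median log2 fold change was -0.012. Of the 5 transcription factor genes examined, which include Tfeb and Tfe3, none passed the test and the median was -0.0073. Tfeb itself averaged 73.6 CPM in both genotypes, with a log2 fold change of 0.001.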

How the data were processed

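Per the submitters' processing notes, the authors aligned reads with HISAT2 and counted them with featureCounts on GRCm38. The deposited values are raw counts, 1 row per Ensembl gene. For these tools, version, annotation release, strand setting and treatment of multi-mapping reads are each not given in the sources used here. Per the labels' protocols, libraries came from TRIzol lysates with a SMARTer mRNA kit.

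Symbols, positions and merged exon lengths came from GENCODE M21 on GRCm38, which matched 55240 of 55421 IDs and left 181 unmatched. Counts were filtered with filterByExpr, scaled by TMM and tested with edgeR 4.0.16 (R 4.3.3) by its quasi-likelihood test (2-sided, genotype alone), with Benjamini-Hochberg adjustment over 13588 genes and a threshold of 0.05. The script was tested on simulated data. CPM is TMM-scaled, and RPKM is that CPM per 1000 bases of exon. The biological coefficient of variation was 0.0744.

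Members and lists were chosen with earlier results of these data known. Per-library values are given for members with an unadjusted p under 0.05 and, in each class, for the member with the smallest p and that with the highest RPKM. Values per library of Gm2a, Naglu, Sgsh, Galns and Acp5 were added after the data had been seen. Alternatives were other scalings, DESeq2 1.42.0, limma 3.58.1 (voom), other filters, a replicate block and leaving out each library. No 2 libraries of the same genotype agreed within sampling noise.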

Additional observations from a re-analysis of the deposited data

How the results depend on the processing

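The number of genes called, 14 in the edgeR quasi-likelihood test, was 42 under DESeq2's Wald test, 151 without a filter on low counts, 5 among genes averaging 10 CPM or more, and 4 to 12 with each library left out in turn. At an unadjusted p under 0.05 there were 739. The number of members called was 0, and 1 under DESeq2's Wald test and without a filter, Hgsnat each time, with 0 to 0 when a library was left out. With replicate number as a block the count was 1 member, again Hgsnat (log2 fold change -0.42, adjusted p = 0.0114), and 17 genes in all. Same-numbered libraries did not deviate together, with correlations of 0.057, -0.123 and 0.0388 across genes, so the samples share only a number. The median over the members, 0.010, was 0.054 with library totals alone, a scaling that moved the median of all genes by 0.043, and -0.023 to 0.032 with a library left out. The log2 ratio of the summed level, 0.016, was 0.059 with library totals alone and -0.019 to 0.050 with a library left out. Of 224 values for the 16 members named by rule, 207 kept direction and side of the threshold, 3 of Hgsnat passed it and 14 changed sign, none of them called. With library totals alone Ppt2 was 0.0063, Acp2 0.0052 and Ctsa 0.025, and with upper-quartile scaling Man2b1 was -0.0032. With a library left out, Psap ranged from -0.023 to 0.052, Man2b1 from -0.0049 to 0.022, Lipa from -0.031 to 0.057, Nagpa from -0.018 to 0.051, Ppt2 from -0.064 to 0.0079 and Ctsa from -0.049 to 0.025. The cause of these shifts was not tested. Low counts limit Rnaset2a and Rnaset2b, which had as few as 29 and 37 counts in a library. Why these counts were low was not tested.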
